A study of Mus musculus with 8 samples.

Results

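The genes described here are those whose symbols start with *Nduf*, most of them nuclear genes for subunits and assembly factors of mitochondrial complex I (NADH:ubiquinone oxidoreductase). They were chosen by symbol alone, among genes measured by a probe set that carries exactly 1 gene symbol, and 43 of the 18820 genes measured in this way belonged to them. Some genes with such a symbol are not analysed here, among them *Ndufa13*, whose probe sets also carry the symbol of another gene, and neither are the complex I subunits encoded by mitochondrial DNA. Expression was measured in epididymal white adipose tissue, a visceral fat depot lying next to the testis, of 4 wild-type (WT) and 4 *Sucnr1*-/- male mice, with 1 Affymetrix whole-transcript array per mouse. *Sucnr1* encodes the cell-surface receptor for succinate, an intermediate of the tricarboxylic acid cycle, and the knockout allele lacks receptor-coding sequence of exon 2, where it carries lacZ and neomycin genes. Both genotypes were bred from heterozygous parents on a C57BL/6 background, received a low-fat diet (LFD) of semi-synthetic make for 16 weeks. The sample labels give an age of 8 to 10 weeks at its start and 24 to 26 weeks at the end, and the study's methods give a wider span of starting ages. None of the arrays was from a mouse on another diet, so the comparison is that of genotypes under this diet.

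Complex I is the entry point of the respiratory chain. Its peripheral arm holds the N module, which takes electrons from NADH, and the Q module, which passes them to ubiquinone, while its membrane arm pumps protons and is usually divided into a proximal and a distal part. The conserved core subunits carry the flavin, the iron-sulphur clusters and the proton channels, and the remaining, accessory subunits surround them. Assembly factors insert cofactors and join the modules without staying in the finished enzyme. Succinate is oxidised by complex II, and electrons it delivers to ubiquinone can under some conditions run backwards into complex I, where superoxide is formed. White adipocytes hold fewer mitochondria than brown ones, and the nuclear genes of complex I are usually expressed together with those of the other respiratory complexes.

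The arrays bore out the genotype labels, since *Sucnr1* lay between 8.68 and 9.78 on the log2 scale in WT and between 5.41 and 7.11 in *Sucnr1*-/- mice, a difference of −3.05 ± 0.36 (SE). Array medians lay between 6.28 and 6.36. The tissue label was borne out by 17 adipocyte markers, whose mean log2 level lay between 12.49 and 12.73 in WT and between 12.68 and 12.74 in *Sucnr1*-/- mice. One array stood apart in the results below. WT replicate 1 was the lowest of the WT mice for 15 of these 17 adipocyte markers, the highest of the WT mice for 11 of 12 immediate early genes, and the highest of the WT mice for 6 of 7 B cell markers. Most counts over groups of genes are therefore given below also without WT replicate 1.

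*Nduf* genes had, as a group, slightly higher means in *Sucnr1*-/- than in WT fat, but no single gene passed the test over all genes. A higher mean was found for 36 of the 43 genes, where 53.2% of all genes had one, and the median log2 difference (*Sucnr1*-/- minus WT) was 0.10, against 0.01 over all genes. The differences ran from −0.24 for *Ndufaf4* to 0.27 for *Ndufa4*, or folds from 0.85 to 1.21. With limma and Benjamini-Hochberg adjustment over all genes, 0 of the 43 passed the threshold of 0.05, as did 0% of all genes, and the smallest adjusted p of a member was 0.712. The deleted gene *Sucnr1* ranked 1 among all genes by p and failed this threshold too (limma, adjusted p = 0.321). Failing it therefore does not show that a gene is unchanged. A weaker rule, an unadjusted p under 0.05, took 5 genes with higher values in *Sucnr1*-/- mice, namely *Ndufb7*, *Ndufab1*, *Ndufa4*, *Ndufaf1* and *Ndufb5*, and it took 3.46% of all genes in this direction. In the lower direction it took 0 of the 43 and 3.36% of all genes. The 4 *Sucnr1*-/- mice all lay above the 4 WT mice for *Ndufb7* and *Ndufab1*, 2 of 43 genes, where 2.37% of all genes were separated in this direction. No member was separated in the lower direction, where 1.87% of all genes were. The 7 genes with lower means in *Sucnr1*-/- mice were *Ndufs6*, *Ndufa2*, *Ndufa6*, *Ndufa12*, *Ndufb2*, *Ndufaf2* and *Ndufaf4*. Because the tissue was measured in bulk, fewer cells of a type and less RNA per cell cannot be told apart in these values.

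A large share of the group difference lay in a single mouse. WT replicate 1 had the lowest value of all 8 mice for 34 of the 43 genes, or 79.1%, where the same mouse was lowest for 24.2% of all genes. Averaged over the 43 genes, and given as the distance from the mean of the WT mice, WT replicate 1 lay at −0.13 on the log2 scale, and WT replicates 2, 3 and 4 at 0.08, 0.03 and 0.02. The *Sucnr1*-/- mice lay at 0.11, 0.13, 0.10 and 0.04. The groups thus overlapped in this average, with *Sucnr1*-/- replicate 4 below WT replicate 2. Without WT replicate 1 the count of genes with a higher mean was 31 of 43, where 50.6% of all genes had one, and the median difference was 0.05. The weaker rule then took 3 of the 43 with higher values, and 2.87% of all genes. With lower values it took 1 of the 43 and 2.75% of all genes. *Sucnr1*-/- replicate 2 was the highest of the 8 mice for 16 genes, or 37.2%, where it was highest for 14.9% of all genes. The median SD was 0.07 among *Sucnr1*-/- and 0.11 among WT mice, but 0.06 among the 3 other WT mice, and over all genes these were 0.12, 0.13 and 0.11.

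**Figure D1:**
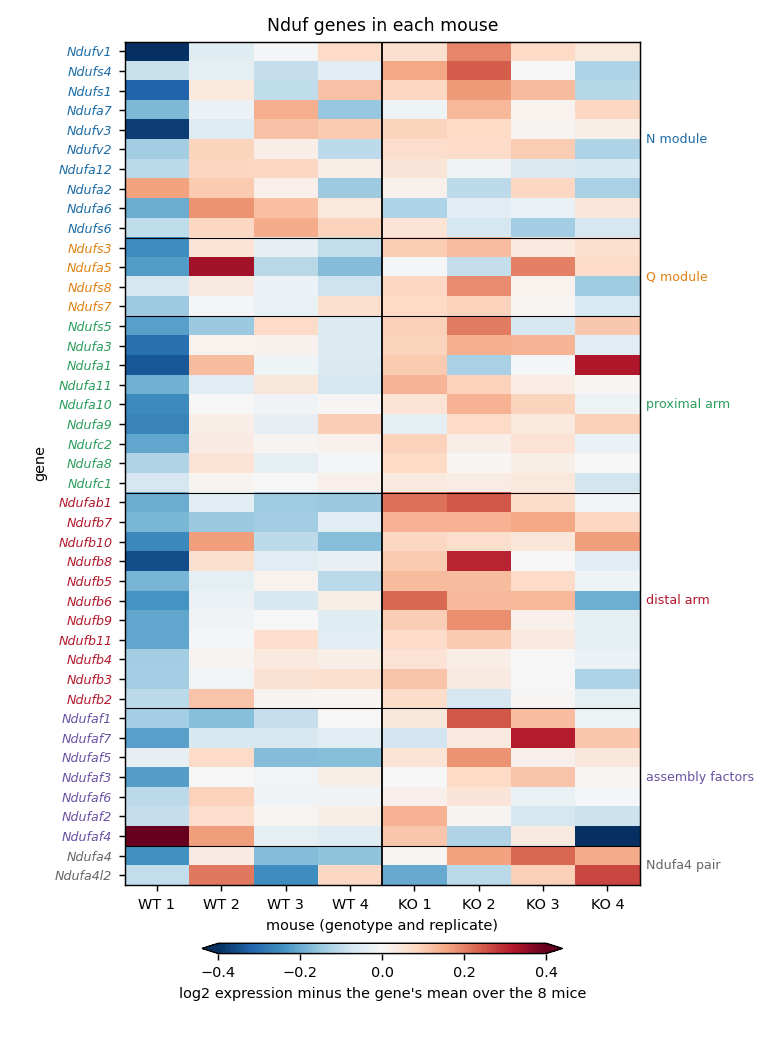
Log2 expression of each of the 43 *Nduf* genes (rows, grouped by role) in each of the 8 mice (columns), as the distance from the gene's own mean over the 8 mice, on a colour scale that saturates at 0.4 in either direction. The column of WT replicate 1 is blue in most rows, with the lowest value of the 8 mice in 34 of 43 genes, while the remaining WT mice and the *Sucnr1*-/- mice differ less.

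How many members passed the weaker rule also depended on how arrays were brought to a common level. When each array was centred on its median over all probe sets, 32 of the 43 genes had higher means, the median difference was 0.07, and 3 genes with higher and 0 with lower values were at an unadjusted p under 0.05. Over all genes the 2 directions then took 1.89% and 5.20%. Centring each array on its median over the genes compared, an alternative chosen after seeing the data, gave 38 of 43, a median of 0.14 and 13 genes against 0, where the median of all genes had itself moved to 0.05 and the directions took 7.18% and 1.75% of all genes.

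**Figure D2:**
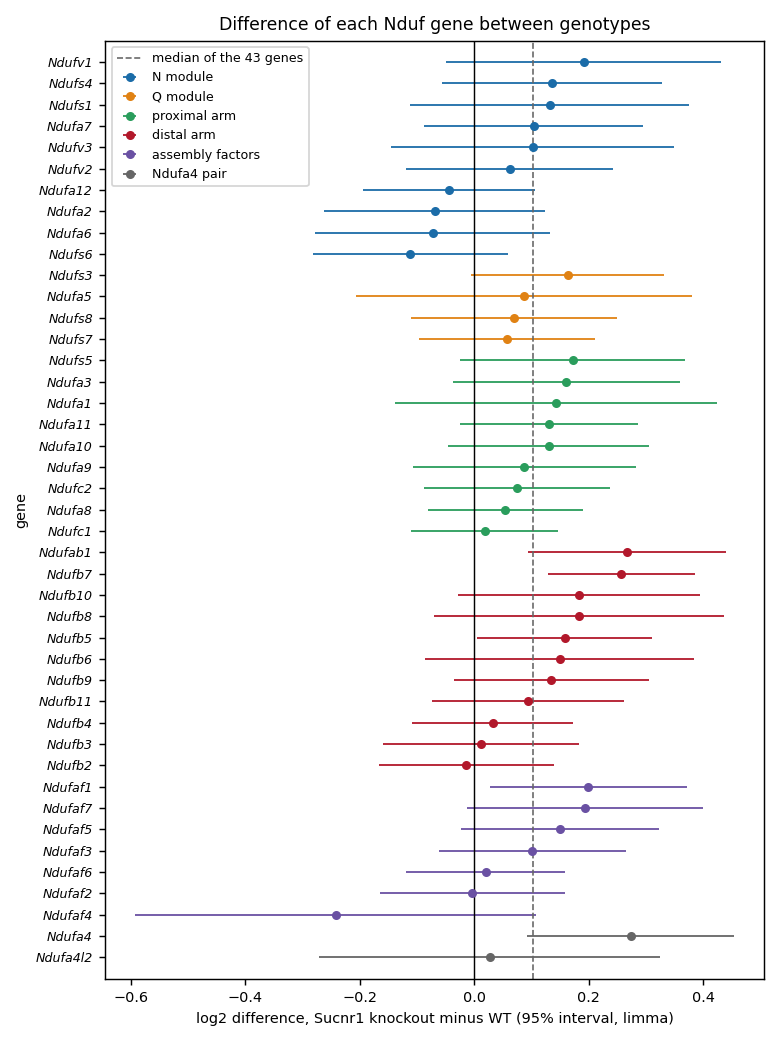
Log2 difference (*Sucnr1*-/- minus WT) of each of the 43 genes with its 95% confidence interval from limma, grouped by role, with the median of the 43 genes as a dashed line at 0.10. Points lie right of 0 for 36 genes, and 5 genes have an unadjusted p under 0.05.

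Of the 5 genes at an unadjusted p under 0.05, 3 are counted here with the distal membrane arm, as are 11 of the 43 members. Among the 3 is *Ndufab1*, whose protein is bound in both arms. *Ndufb7* encodes an accessory subunit on the intermembrane-space face of the distal arm, held together by disulphide bonds. Its log2 values were 9.95, 9.99, 10.00 and 10.09 in WT mice and 10.28, 10.27, 10.29 and 10.22 in *Sucnr1*-/- mice. The groups did not overlap, and the highest WT mouse stayed below the lowest *Sucnr1*-/- mouse. The difference was 0.26 ± 0.06 (SE), a fold of 1.20, which ranked 28 among all genes by p (limma, unadjusted p = 0.00151, adjusted p = 0.712). The exact two-sided permutation test gave 0.0286, the smallest p it allows with 4 mice against 4. Groups without overlap always give this value, so it only repeats the separation, here and for *Ndufab1* below.

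*Ndufab1* encodes the mitochondrial acyl carrier protein, which serves mitochondrial fatty acid and lipoic acid synthesis and is also a subunit of complex I, bound in both arms. WT mice had 10.10, 10.26, 10.16 and 10.15, and *Sucnr1*-/- mice 10.52, 10.55, 10.38 and 10.29. These groups did not overlap either, although the lowest *Sucnr1*-/- mouse lay close above the highest WT mouse. The difference was 0.27 ± 0.08 (SE), again a fold of 1.20 (limma, unadjusted p = 0.00683, adjusted p = 0.712, exact permutation p = 0.0286). A dimmer probe set of *Ndufab1*, not used above, gave 0.26 ± 0.07 and was also free of overlap.

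*Ndufa4* encodes a protein first described in complex I and later assigned to cytochrome *c* oxidase (complex IV), so its symbol is older than its present placement. By its symbol *Ndufa4* is counted here with the *Nduf* genes and not with complex IV. Its values were 10.20, 10.47, 10.27 and 10.28 in WT mice and 10.45, 10.60, 10.67 and 10.59 in *Sucnr1*-/- mice. WT replicate 2 lay just above *Sucnr1*-/- replicate 1, which was the single overlap. The difference was 0.27 ± 0.08 (SE), a fold of 1.21 (limma, unadjusted p = 0.00782, adjusted p = 0.712, exact permutation p = 0.0571). Its paralogue *Ndufa4l2*, known as a gene induced by hypoxia, had 6.41, 6.72, 6.26 and 6.59 in WT and 6.31, 6.40, 6.61 and 6.78 in *Sucnr1*-/- mice. Here the groups overlapped throughout, with a difference of 0.03 ± 0.13 and a 95% confidence interval from −0.27 to 0.33.

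*Ndufaf1* encodes an assembly factor that takes part in building the membrane arm. WT mice had 8.36, 8.32, 8.40 and 8.49 and *Sucnr1*-/- mice 8.54, 8.74, 8.62 and 8.47, so that only WT replicate 4 and *Sucnr1*-/- replicate 4 crossed. The difference was 0.20 ± 0.08 (SE) (limma, unadjusted p = 0.0276, adjusted p = 0.712, exact permutation p = 0.0571). *Ndufb5*, an accessory subunit of the distal arm, had 10.39, 10.54, 10.59 and 10.46 in WT and 10.70, 10.70, 10.65 and 10.56 in *Sucnr1*-/- mice. *Sucnr1*-/- replicate 4 fell within the WT range, and the difference was 0.16 ± 0.07 (limma, unadjusted p = 0.045, adjusted p = 0.719). Of these 5 genes, *Ndufb7*, *Ndufab1* and *Ndufa4* stayed at an unadjusted p under 0.05 under all 16 alternative settings tried, the one without WT replicate 1 among them, where they differed by 0.24, 0.25 and 0.24. *Ndufaf1* did so under 9 and *Ndufb5* under 7.

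**Figure D3:**
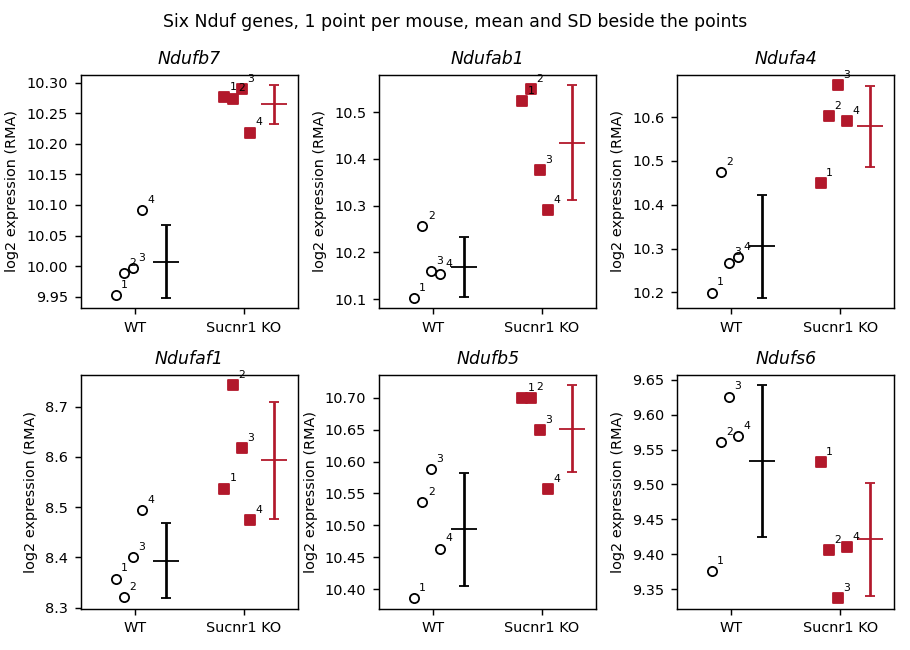
Log2 expression of 6 *Nduf* genes in each mouse (points), with the mean of each genotype (line) and its SD (error bar, 4 mice per genotype), each panel on an axis of its own that does not start at 0. For *Ndufb7* and *Ndufab1* the points of the 2 genotypes do not overlap, and for *Ndufs6* the mean is lower in *Sucnr1*-/- mice.

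The promoters of these 5 genes are shown because they were the members nearest to a difference. Each line gives, on the gene's own strand, the 250 bases before and the 30 bases after the annotated start of transcription in RefSeq's GRCm38.p6, for *Ndufb7* chr8:83566508-83566787 (plus strand), for *Ndufab1* chr7:122101819-122102098 (minus strand), for *Ndufa4* chr6:11907421-11907700 (minus strand), for *Ndufaf1* chr2:119662805-119663084 (minus strand) and for *Ndufb5* chr3:32736813-32737092 (plus strand). Capitals mark a match to one of 4 motifs searched.
Ndufb7: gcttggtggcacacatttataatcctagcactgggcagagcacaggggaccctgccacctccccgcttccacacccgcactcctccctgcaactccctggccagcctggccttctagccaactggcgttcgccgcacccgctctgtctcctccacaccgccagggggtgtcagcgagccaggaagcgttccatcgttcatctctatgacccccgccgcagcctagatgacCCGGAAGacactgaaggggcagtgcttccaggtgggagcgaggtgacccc
Ndufab1: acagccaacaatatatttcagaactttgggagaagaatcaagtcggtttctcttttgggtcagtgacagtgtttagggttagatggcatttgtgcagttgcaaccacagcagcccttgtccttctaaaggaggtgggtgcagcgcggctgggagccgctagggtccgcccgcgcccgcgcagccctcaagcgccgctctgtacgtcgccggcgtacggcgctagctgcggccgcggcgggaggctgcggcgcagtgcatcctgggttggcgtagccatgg
Ndufa4: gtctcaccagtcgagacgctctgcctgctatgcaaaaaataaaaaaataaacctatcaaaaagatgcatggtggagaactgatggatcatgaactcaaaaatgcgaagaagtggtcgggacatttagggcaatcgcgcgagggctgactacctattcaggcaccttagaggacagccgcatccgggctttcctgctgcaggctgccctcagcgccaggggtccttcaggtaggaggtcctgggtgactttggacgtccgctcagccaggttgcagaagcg
Ndufaf1: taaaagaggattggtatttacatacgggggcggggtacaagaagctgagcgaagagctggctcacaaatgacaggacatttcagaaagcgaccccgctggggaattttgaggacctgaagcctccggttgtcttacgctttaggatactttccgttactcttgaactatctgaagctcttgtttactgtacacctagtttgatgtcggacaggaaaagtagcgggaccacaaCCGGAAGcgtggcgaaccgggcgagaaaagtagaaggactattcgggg
Ndufb5: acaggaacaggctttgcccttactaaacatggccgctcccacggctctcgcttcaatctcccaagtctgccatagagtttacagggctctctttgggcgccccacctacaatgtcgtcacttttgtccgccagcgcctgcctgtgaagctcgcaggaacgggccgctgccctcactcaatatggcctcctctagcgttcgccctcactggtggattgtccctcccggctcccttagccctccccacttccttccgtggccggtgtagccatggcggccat

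The motifs, searched on both strands, were CGCATGCG, the core of the site of nuclear respiratory factor 1 and the same on either strand, CCGGAAG for the ETS family to which GABP belongs, TCAAGGTCA for the oestrogen-related receptors, and AAGATGGCG, the core of the YY1 site. No match of 1 motif overlapped one of another. A promoter window was found for 38 of the 43 genes. The ETS letters stood in 5 of these, or 13.2%, against 13.1% of the 14749 measured genes with a window. They began at −20 in *Ndufb7* and −18 in *Ndufaf1*, counted back from the start of transcription, which are the capitals above, and *Ndufb6*, *Ndufs3* and *Ndufs8* held the others. The nuclear respiratory factor 1 core stood in *Ndufa8*, *Ndufa11*, *Ndufaf4* and *Ndufaf5*, or 10.5%, against 2.9% of measured genes. Those 4 genes had a median log2 difference of 0.09, and the 34 members without the core one of 0.10. The oestrogen-related receptor letters were found in 0 members and in 0.332% of measured genes, and the YY1 core in 0 members and in 1.65%. The windows of *Ndufa3* and *Ndufc1* ended on all but the last letter of the YY1 core, so whether it is complete there could not be seen. The median GC content of the windows was 58.2% for the members and 57.3% for measured genes.

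In the N module, which holds the NADH-oxidising site, 6 of 10 subunits had higher means in *Sucnr1*-/- mice, with a median difference of 0.08, and 0 were at an unadjusted p under 0.05. *Ndufv1*, the flavin-binding core subunit, had 10.28, 10.64, 10.68 and 10.77 in WT and 10.75, 10.88, 10.77 and 10.73 in *Sucnr1*-/- mice. WT replicate 1 was far below the other mice, and the difference of 0.19 ± 0.11 (SE) was within the spread between mice and was 0.09 without it. *Ndufs4*, an accessory subunit whose loss in children causes Leigh syndrome, differed by 0.14 ± 0.08. *Ndufs6*, a zinc-binding accessory subunit, went the other way, with 9.38, 9.56, 9.63 and 9.57 in WT and 9.53, 9.41, 9.34 and 9.41 in *Sucnr1*-/- mice. Its groups overlapped through WT replicate 1 alone, and the difference was −0.11 ± 0.07. Without WT replicate 1 it was −0.16, the single member with lower values at an unadjusted p under 0.05 in that setting. Without that mouse 5 of the 10 had higher means and the median of the N module was 0.01.

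In the Q module, which passes electrons to ubiquinone, all 4 measured subunits had higher means, with a median difference of 0.08. Without WT replicate 1 all 4 still had higher means, and the median was 0.04. *Ndufs3*, a core subunit, had 10.82, 11.13, 11.04 and 10.98 in WT and 11.17, 11.20, 11.11 and 11.14 in *Sucnr1*-/- mice. The groups overlapped through WT replicate 2, and the difference was 0.16 ± 0.07 (SE). The core subunits *Ndufs7* and *Ndufs8*, which bind iron-sulphur clusters, differed by 0.06 ± 0.07 and 0.07 ± 0.08, and the accessory *Ndufa5* by 0.09 ± 0.13, with WT replicate 2 above all other mice. Over the 6 measured nuclear core subunits of both modules, all had higher means, 0 were at an unadjusted p under 0.05, and the median was 0.10. With that mouse left out it was 6 of 6, with a median of 0.05.

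All 9 subunits of the proximal membrane arm had higher means in *Sucnr1*-/- mice, with differences from 0.02 to 0.17 and a median of 0.13, and 0 were at an unadjusted p under 0.05. For all 9 WT replicate 1 was the lowest of the WT mice, and without it 9 of 9 had higher means and the median was 0.05. *Ndufs5* had the smallest p here, with 8.96, 9.04, 9.26 and 9.13 in WT and 9.28, 9.39, 9.12 and 9.29 in *Sucnr1*-/- mice. Only *Sucnr1*-/- replicate 3 lay among the WT mice, and the difference was 0.17 ± 0.09 (SE). *Ndufa11* differed by 0.13 ± 0.07, *Ndufa3* by 0.16 ± 0.09, *Ndufc2* by 0.08 ± 0.07 and *Ndufc1* by 0.02 ± 0.06.

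The distal membrane arm gave 10 of 11 subunits with higher means, a median of 0.15 and 3 genes at an unadjusted p under 0.05, *Ndufb7*, *Ndufab1* and *Ndufb5* above. WT replicate 1 was the lowest of the WT mice for all 11, and without it 8 of 11 had higher means, the median was 0.09 and 2 genes, *Ndufb7* and *Ndufab1*, remained at an unadjusted p under 0.05. *Ndufb10* had 8.27, 8.70, 8.43 and 8.36 in WT and 8.61, 8.60, 8.58 and 8.70 in *Sucnr1*-/- mice, overlapping through WT replicate 2, with a difference of 0.18 ± 0.09 (SE). *Ndufb8*, whose protein is often used to gauge assembled complex I on blots, had 10.26, 10.68, 10.57 and 10.59 in WT and 10.72, 10.92, 10.62 and 10.57 in *Sucnr1*-/- mice, a difference of 0.18 ± 0.11 with overlapping groups, or of 0.10 without WT replicate 1. *Ndufb4* differed by 0.03 ± 0.06, *Ndufb3* by 0.01 ± 0.08 and *Ndufb2*, the exception in direction, by −0.01 ± 0.07. The distal arm was not tested against the other modules, and the ranges of the 4 overlapped.

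Among the 7 assembly factors named *Nduf*, 5 had higher means, with a median of 0.10, and *Ndufaf1* was at an unadjusted p under 0.05. These were 4 of 7, a median of 0.05 and 0 genes without WT replicate 1. *Ndufaf7*, a methyltransferase of the mitochondrial matrix, had 6.92, 7.07, 7.07 and 7.09 in WT and 7.06, 7.17, 7.45 and 7.25 in *Sucnr1*-/- mice, with *Sucnr1*-/- replicate 1 inside the WT range and a difference of 0.19 ± 0.09 (SE). *Ndufaf5*, which hydroxylates a subunit of the Q module, differed by 0.15 ± 0.08, *Ndufaf3* by 0.10 ± 0.07, *Ndufaf6* by 0.02 ± 0.06 and *Ndufaf2* by 0.00 ± 0.07. *Ndufaf4* had the widest spread, with 7.68, 7.45, 7.24 and 7.23 in WT and 7.39, 7.16, 7.31 and 6.77 in *Sucnr1*-/- mice. Here WT replicate 1 was the highest and *Sucnr1*-/- replicate 4 the lowest of the 8 mice, and the difference of −0.24 ± 0.15 was within the spread between mice. Of 13 further complex I assembly factors with other symbols, 7 had higher means, the median was 0.02 and 1 was at an unadjusted p under 0.05, or 6, −0.02 and 1 without WT replicate 1. This was *Nubpl*, which delivers iron-sulphur clusters to complex I, with 5.80, 6.14, 5.87 and 5.64 in WT and 6.19, 6.18, 6.21 and 6.21 in *Sucnr1*-/- mice. Its groups did not overlap and it differed by 0.33 ± 0.10. *Chchd4*, an import factor of the intermembrane space, differed by −0.41 ± 0.24.

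Complex I was not alone in this direction. Higher means were found for 6 of 8 genes of complex II, with a median of 0.13, for 8 of 8 of complex III, with 0.13, for 10 of 10 of complex IV, with 0.09, and for 13 of 16 of ATP synthase, with 0.07. The complex II genes include assembly factors, and the 2 with lower means were the assembly factors *Sdhaf1*, with −0.02, and *Sdhaf2*, with −0.06. The weaker rule took 1, 1, 3 and 1 genes of these complexes, all with higher values, where it took 3.46% of all genes. The adjusted threshold was passed by 0 of them. *Sdhb*, the iron-sulphur subunit of complex II, the enzyme that consumes succinate, had 11.02, 11.17, 11.20 and 11.17 in WT and 11.36, 11.42, 11.33 and 11.33 in *Sucnr1*-/- mice. Its groups did not overlap, and the difference was 0.22 ± 0.06 (SE). *Uqcr11* of complex III differed by 0.24 ± 0.06, *Cox4i1* of complex IV by 0.22 ± 0.09 and *Atp5j2* of ATP synthase by 0.18 ± 0.06, each without overlap. In this direction the groups were separated for 2, 1, 3 and 2 genes of these complexes, and for 2.37% of all genes. WT replicate 1 was the lowest of the WT mice for 5 of 8, 8 of 8, 8 of 10 and 10 of 16 of these genes. Without it higher means were found for 6, 7, 8 and 13 of them, and the medians were 0.09, 0.07, 0.05 and 0.04, against 0.05 for the *Nduf* genes. The weaker rule then took 2, 1, 1 and 1 of them, all with higher values, and 2.87% of all genes in that direction. *Cox4i1* then differed by 0.15.

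**Figure D4:**
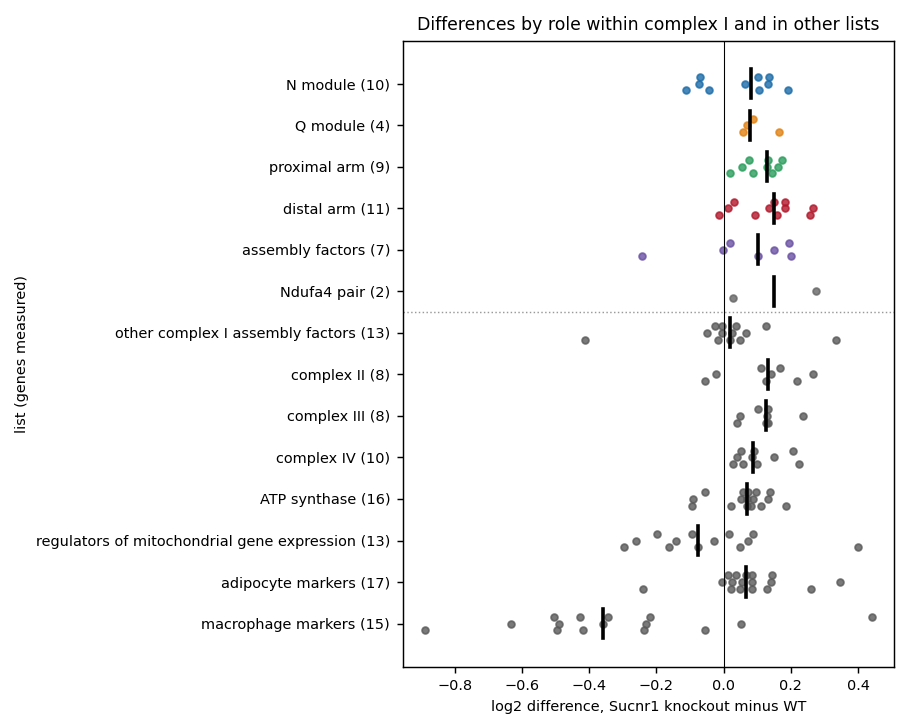
Log2 differences (*Sucnr1*-/- minus WT) of single genes (points) by group of genes, with the median of each group (bar). The medians of the *Nduf* groups and of complexes II to IV and ATP synthase lie between 0.07 and 0.15, that of the other assembly factors at 0.02 and that of the macrophage markers at −0.36.

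Regulators of mitochondrial gene expression did not share the direction of the *Nduf* genes. Of 13 measured, 5 had higher and 8 lower means in *Sucnr1*-/- mice, with a median of −0.08, and 0 were at an unadjusted p under 0.05. Without WT replicate 1 the counts were the same, the median was −0.04 and 1 gene, *Ppargc1b*, had lower values at an unadjusted p under 0.05. *Tfam*, the packaging and transcription factor of mitochondrial DNA, had 7.44, 7.55, 7.24 and 7.29 in WT and 7.26, 7.21, 7.23 and 7.02 in *Sucnr1*-/- mice, a difference of −0.20 ± 0.09 (SE) with overlapping groups. *Nrf1*, which encodes nuclear respiratory factor 1, differed by −0.14 ± 0.09. *Ppargc1a*, the coactivator PGC-1α, had 6.75, 7.70, 7.65 and 7.67 in WT and 7.83, 8.36, 7.54 and 7.64 in *Sucnr1*-/- mice. WT replicate 1 stood far below and *Sucnr1*-/- replicate 2 above the others, as for many *Nduf* genes, and the difference was 0.40 ± 0.25, or 0.17 without WT replicate 1.

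Markers of some cell types had different means in the genotypes and varied between single mice, but 0 of all genes passed the adjusted threshold. The weaker rule took 3.46% of all genes with higher and 3.36% with lower values, or 2.87% and 2.75% without WT replicate 1. Of the 17 adipocyte markers 15 had higher means in *Sucnr1*-/- mice, with a median of 0.07 and 2 at an unadjusted p under 0.05, and their average lay at −0.13 in WT replicate 1 and between 0.01 and 0.11 in the other mice, on the same scale as above. These markers gave 11 of 17, a median of 0.02 and 0 at an unadjusted p under 0.05 without that mouse. Of 15 macrophage markers 13 had lower means, with a median of −0.36. The weaker rule took 5 with lower values, among them *Adgre1* with −0.50 ± 0.15 (SE) and *Cd68* with −0.49 ± 0.15, and 1 with higher values, *Mertk* with 0.44 ± 0.12. They gave 13 of 15, a median of −0.25, and by the weaker rule 3 with lower and 1 with higher values without WT replicate 1. Their mean log2 level lay between 9.79 and 10.16 in WT and between 9.47 and 9.78 in *Sucnr1*-/- mice, which was barely without overlap. All 7 B cell and all 8 T cell markers had lower means in *Sucnr1*-/- mice, with medians of −0.82 and −0.30, or −0.31 and −0.17 without WT replicate 1, and the B cell average lay at 1.21 in WT replicate 1 and between −0.83 and 0.21 in the other WT mice. Immediate early genes averaged 0.64 in WT replicate 1 and 0.40 in *Sucnr1*-/- replicate 1, and from −0.62 to −0.09 in the other mice. Higher means were found for 4 of 8 stromal progenitor markers, with a median of 0.00, and for 3 of 9 endothelial markers, with a median of −0.02. Without WT replicate 1 these were 3 of 8, with −0.04, and 2 of 9, with −0.07. The part of each of these in the differences of the *Nduf* genes was not tested. Of 10 brown and beige adipocyte markers 3 had higher means, with a median of −0.08, and *Ucp1* had means of 4.15 and 4.03. Without WT replicate 1 it was 2 of 10, with a median of −0.11 and 1 gene with lower values at an unadjusted p under 0.05. For 10 skeletal muscle markers the mean log2 level lay between 5.66 and 5.80 in WT and between 5.64 and 5.80 in *Sucnr1*-/- mice. Markers of epididymis and testis averaged 0.78 in *Sucnr1*-/- replicate 4 and at most 0.40 in any other mouse. *Prm1*, *Tnp1* and *Tnp2* were highest in *Sucnr1*-/- replicate 4 and next highest in WT replicate 3. The other markers of this list did not share that order. *Prm1* had 11.03 and 10.23 in these mice and from 6.09 to 7.53 in the others. The source of this signal was not tested.

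**Figure D5:**
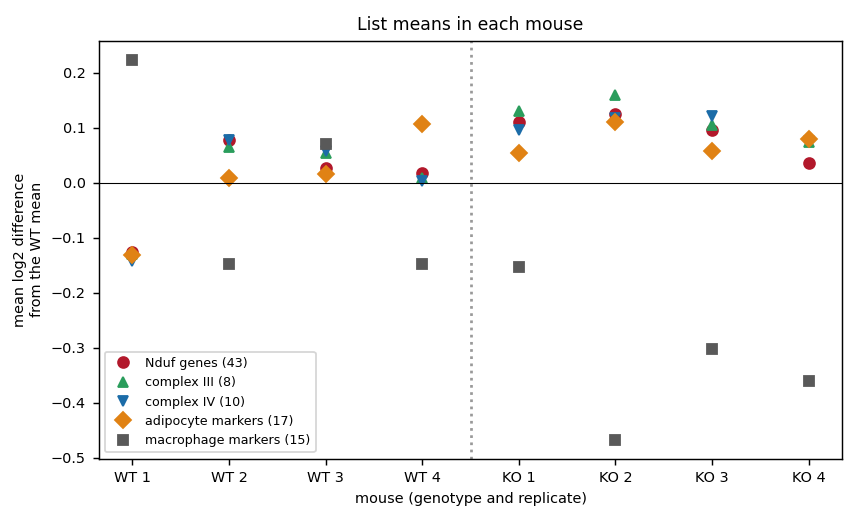
Average of the *Nduf* genes, of complexes III and IV and of adipocyte and macrophage markers in each mouse, as the log2 distance from the mean of the WT mice. WT replicate 1 lies at −0.13 for both the *Nduf* genes and the adipocyte markers, below every other mouse, and highest for the macrophage markers.

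Some values depend on how probes map to genes. Of the 43 genes, 7 had more than 1 probe set, and 0 of these had probe sets of opposite sign. In a fit over all probe sets, *Ndufb11* gave 0.09 ± 0.08 (SE) and 0.12 ± 0.07, and *Ndufc1* 0.02 ± 0.06 and 0.08 ± 0.06. *Ndufa11* gave 0.13 ± 0.07 with the probe set used and 0.08 ± 0.07 with its dimmer one. Several *Nduf* genes have processed pseudogenes or near-identical copies in the mouse genome, such as *Ndufs5*, *Ndufa12*, *Ndufab1* and *Ndufb4*. Their values are uncertain to the extent that probes are shared with those copies.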

How the data were processed

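RNA of epididymal white adipose tissue of 4 WT and 4 *Sucnr1*-/- mice was hybridised to 1 array each, so that replicates are animals. The deposited values are on the log2 scale and were made by the authors with RMA, the tool in the submitters' processing notes, which corrects background, normalizes arrays together and summarises probes. Total signal per array has thus been equalised and low values are compressed. The RMA version and a scan date are not given in the sources used here. Precision is limited by the number of arrays.

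Only probe sets carrying a single gene symbol entered, and each gene was represented by its brightest. The 18820 genes were fitted together in limma 3.58.1 (R 4.3.3, lmFit followed by eBayes), and p-values were adjusted by Benjamini-Hochberg over all of them. Differences are *Sucnr1*-/- minus WT. Single genes were also compared by an exact two-sided permutation test over the 70 ways to choose 4 of 8 mice. Genes named in full were those without overlap or at an unadjusted p under 0.05, then for each role the gene of smallest p, of highest mean and of largest opposite difference. A few further members were named for their known function after their values were seen. Members and lists were chosen with earlier results of these data known. Alternatives were the methods' t test, a robust prior that depends on intensity, omission of the dimmest 40% of genes, quantile normalization, centring of arrays on their median (over all probe sets or, chosen after seeing the data, over genes), averaging of probe sets per gene, a replicate block, and omission of each array in turn. The fit was tested on simulated data. Promoters came from RefSeq's GRCm38.p6 and were matched to genes by symbol. The motifs for nuclear respiratory factor 1 and YY1 were shortened to their cores after the plan was made. Protein sequences were not used here.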

Additional observations from a re-analysis of the deposited data

Results flagged for a closer look

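In 86 groups of 4 mice, 1 for each gene and genotype, 6 had a single mouse so far from the other 3 that its gap passed the 95% limit of Dixon's test, where chance alone would give about 1 in 20. In 4 of them the mouse was WT replicate 1, lower than the other WT mice. It had a log2 value of 11.44 for *Ndufa10*, where the others lay between 11.68 and 11.69. For *Ndufc2* it had 12.37, with the others between 12.58 and 12.61. For *Ndufaf3* it had 9.35, with the others between 9.56 and 9.59. For *Ndufaf7* it had 6.92, with the others between 7.07 and 7.09. In the remaining 2 the mouse was *Sucnr1*-/- replicate 4, again the low one, with 10.47 for *Ndufc1* against 10.57 to 10.59, and 11.2 for *Ndufv2* against 11.4 to 11.43.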

How the results depend on the processing

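Under each of 16 alternatives 0 of the *Nduf* genes passed the adjusted threshold with limma or with the methods' t test, which gave 6 genes at an unadjusted p under 0.05. The count of genes with a higher mean lay between 31 (without WT replicate 1) and 38, and leaving out 1 array moved the median difference between 0.05 and 0.13. Genes with higher values at an unadjusted p under 0.05 numbered 5, but 3 with arrays centred on their median. They numbered 6 with the robust prior, 7 after quantile normalization, 4 with the replicate block and 4 with probe sets averaged. With arrays centred on their median over genes (chosen after seeing the data) they numbered 13. When 1 array was left out they numbered 3 to 7, with 3 without WT replicate 1 and without *Sucnr1*-/- replicate 2. Genes with lower values numbered 0, but 1 with the replicate block and 0 to 1 with an array left out (1 without WT replicate 1). Genes with all *Sucnr1*-/- mice above all WT mice numbered 2, but 5 after quantile normalization, 10 after centring over genes, and 2 to 10 with an array left out. Those counts were 8, 5 and 5 without WT replicates 2, 3 and 4, and 4, 4 and 10 without *Sucnr1*-/- replicates 1, 3 and 4, where fewer mice have to be separated. Of all 18820 genes, 446 were separated in this direction with all mice, and 700 without WT replicate 1. For the other settings the count over all genes was not made, so a rise there cannot be read as particular to *Nduf* genes. The median of the *Nduf* assembly factors was 0.05 without WT replicate 1, and that of ATP synthase 0.11 after centring over genes.

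The sign of a gene's difference changed at least once for 8 genes and never for 35. Centring on the median gave −0.0033 for *Ndufa4l2*, −0.0103 for *Ndufaf6*, −0.0185 for *Ndufb3* and −0.0116 for *Ndufc1*. Quantile normalization gave 0.0072 for *Ndufaf2* and 0.0108 for *Ndufb2*, and centring over genes 0.038 and 0.0275. When 1 array was left out, the difference ran from −0.0573 to 0.1016 for *Ndufa4l2*, from −0.0495 to 0.0257 for *Ndufaf2*, from −0.0116 to 0.0544 for *Ndufaf6*, from −0.0518 to 0.0229 for *Ndufb2*, from −0.0316 to 0.0553 for *Ndufb3*, from −0.0085 to 0.0509 for *Ndufb4* and from −0.0057 to 0.1587 for *Ndufv3*. The cause of these changes was not tested.

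The labels number the mice of both genotypes but do not pair them, and the deviations of same-numbered mice correlated with r of 0.454, 0.141, 0.106 and 0.0148 over all genes, with 2 of 4 WT mice closest to their own number. With the replicate block 36 *Nduf* genes had higher means, 4 with higher and 1 with lower values were at an unadjusted p under 0.05, and 0 passed (limma, smallest adjusted p = 0.407).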

Other observations

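Probe sets shared by an *Nduf* gene and another gene were left out above. The brighter one shared by *Tssk6* and *Ndufa13*, a kinase gene and the gene of a proximal arm subunit, had log2 values of 10.13, 10.21, 10.34 and 10.26 in WT and 10.34, 10.35, 10.40 and 10.41 in *Sucnr1*-/- mice, without overlap and with a difference of 0.14 ± 0.06 (SE). Its dimmer probe set had means of 5.50 and 5.49. The probe set shared by *Ndufs5* and a pseudogene of it differed by 0.13 ± 0.09, and that shared by *Morn5* and *Ndufa8* by −0.03 ± 0.06.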
